A study of Mus musculus with 16 samples.

Results

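The 10 genes Gata4, Gata5, Gata6, Nkx2-5, Isl1, Hand1, Hand2, Mef2c, Myocd and Smarcd3 encode transcription factors and cofactors of the early heart, and their RNA was followed in mouse ES-E14TG2a cells, an embryonic stem cell line, during differentiation towards cardiomyocytes. They were chosen by symbol from the 54052 entries of a count table, and all 10 were among the 19141 entries with enough reads to test. The cells, labelled wild type, carried a short hairpin against Beclin1 (shBeclin1), an autophagy protein encoded by Becn1, or the hairpin shNT, taken here as the control. Each hairpin was sequenced at day 0 as stem cells, at day 4 as embryoid bodies, and at day 10 in 2 cultures labelled CM without GF and CM, with 2 libraries in each of the 8 groups. The labels do not spell out GF, and they tag the day 10 cells as cardiomyocytes. The study asked what lies behind better cardiomyocyte differentiation when Beclin1 is knocked down.

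GATA4, GATA5 and GATA6 are zinc-finger factors that bind GATA motifs, and GATA4 works with the homeodomain factor NKX2-5 on many cardiac promoters. HAND1 and HAND2 are basic helix-loop-helix factors of the developing ventricles, ISL1 is a LIM-homeodomain factor of the second heart field progenitors, and MEF2C is a MADS-box factor of muscle and endothelium. Myocardin (Myocd) is a coactivator of serum response factor in heart and smooth muscle, and Smarcd3 encodes BAF60c, the subunit that brings the SWI/SNF remodelling complex to cardiac factors.

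Levels are reads scaled to library size with TMM (CPM), a gene's share of its library, and library totals were 14967744 to 21422980 counts. A gene was called at an adjusted p under 0.05 in edgeR's quasi-likelihood test over all 19141 genes. Becn1, the gene targeted by the hairpin, had 43.7% of the shNT level left at day 0, 49.8% at day 4, 70.8% at day 10 without GF and 62.1% in CM, with adjusted p-values of 2.42e-13 to 5.17e-07. Nothing in the labels says that the 2 libraries of a group came from separate cultures, so p-values measure the spread between these libraries, which may be technical, and 1 hairpin per target was used. The batch given for each library is the same as its group, and the parts of batch and group cannot be told apart.

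The shNT libraries of day 10 had low levels of the markers of the cell type they are labelled with. The summed level of 24 cardiomyocyte genes was 5431 and 9581 CPM in shBeclin1 cells without GF, against 284 and 271 CPM in shNT cells without GF. In CM it was 7337 and 6874 CPM in shBeclin1 cells, against 359 and 377 CPM in shNT cells. The shNT sums lay below those of the day 0 stem cells of either hairpin, at 446 to 497 CPM, and most of each came from Atp2a2, a calcium pump used by many cells, at 202 CPM without GF and 294 CPM in CM. In shNT cells 11 of the 24 genes were at 1 CPM or more in both libraries without GF and 12 in CM. The same held for 9 genes in shBeclin1 and 10 in shNT stem cells, and for 23 in shBeclin1 cells of either day 10 culture. Cardiac troponin T (Tnnt2), which defines the cell type, averaged 761 CPM in shBeclin1 and 1.22 CPM in shNT cells without GF, and 790 CPM in shBeclin1 and 1.27 CPM in shNT cells in CM. In these bulk libraries fewer cells of a type and less RNA per cell cannot be told apart, and that holds for each difference below.

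Promoters of 6 of the 10 genes are listed by RefSeq for GRCm38.p6, each running from 250 bases before the start site to 50 after it. Those of 4 genes are printed as examples, Nkx2-5 and Gata5 of genes near 0 until day 10 and Hand2 and Isl1 of genes that already differed between hairpins at day 4, and those of Smarcd3 and Mef2c, which also differed at day 4, are given by their sites. Capitals mark GATA sites (AGATAA, with T also allowed as the first base and G as the last) and E-boxes (CANNTG), the sequences that GATA and helix-loop-helix factors bind, found on both strands, and no site overlapped another. The windows are chr17:26841516-26841815 on the minus strand for Nkx2-5, chr2:180334630-180334929 on the minus strand for Gata5, chr8:57320733-57321032 on the plus strand for Hand2 and chr13:116309639-116309938 on the minus strand for Isl1, each read 5′ to 3′ along the gene.
Nkx2-5: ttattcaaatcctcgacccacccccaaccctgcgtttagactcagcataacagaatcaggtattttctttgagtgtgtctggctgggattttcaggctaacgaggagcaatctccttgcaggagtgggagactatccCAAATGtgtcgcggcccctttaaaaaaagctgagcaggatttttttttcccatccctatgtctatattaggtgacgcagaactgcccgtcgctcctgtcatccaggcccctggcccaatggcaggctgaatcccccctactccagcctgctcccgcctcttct
Gata5: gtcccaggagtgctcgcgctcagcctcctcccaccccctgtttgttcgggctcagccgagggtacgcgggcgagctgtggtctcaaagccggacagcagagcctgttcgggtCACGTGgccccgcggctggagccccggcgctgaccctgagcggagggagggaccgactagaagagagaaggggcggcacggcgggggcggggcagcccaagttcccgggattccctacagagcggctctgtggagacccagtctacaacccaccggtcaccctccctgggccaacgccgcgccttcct
Hand2: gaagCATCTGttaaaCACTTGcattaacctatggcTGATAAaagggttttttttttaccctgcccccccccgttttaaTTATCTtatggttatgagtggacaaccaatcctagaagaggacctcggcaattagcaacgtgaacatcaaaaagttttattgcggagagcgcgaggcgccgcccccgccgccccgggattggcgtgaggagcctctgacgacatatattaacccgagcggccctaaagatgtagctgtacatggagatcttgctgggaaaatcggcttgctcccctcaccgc
Isl1: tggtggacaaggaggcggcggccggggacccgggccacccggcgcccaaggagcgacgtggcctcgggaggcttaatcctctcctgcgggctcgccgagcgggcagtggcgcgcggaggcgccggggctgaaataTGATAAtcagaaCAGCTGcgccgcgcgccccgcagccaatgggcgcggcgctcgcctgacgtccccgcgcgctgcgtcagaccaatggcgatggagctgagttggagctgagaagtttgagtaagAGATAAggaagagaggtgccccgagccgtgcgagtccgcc
The Hand2 window held 2 GATA sites, at -215 and -172 from the start site, and 2 E-boxes, at -246 and -235. The Isl1 window held 2 GATA sites, at -115 and 11, and 1 E-box at -103, and the Gata5 and Nkx2-5 windows held 1 E-box each, at -138 and -113, and no GATA site. The Smarcd3 window held 1 GATA site, at -94, and 1 E-box, at -237, and the 3 Mef2c windows held no GATA site and 0 to 2 E-boxes each. The windows given of genes that differed at day 4 thus had 0 to 2 GATA sites. Gata4, Gata6 and Hand1 also differed at day 4 and have no window here. Of 32851 mouse promoters of the same length, 29.8% held a GATA site, 7.77% held 2 or more, and 72.3% held an E-box. A match is a description of the letters and was not tested for binding.

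More of these genes differed between hairpins at later points. At day 0, none of the 10 was higher and 1 was lower in shBeclin1 cells, where 5.79% of all tested genes were called higher and 7.55% lower; at an unadjusted p under 0.05 none was higher and 3 were lower, and DESeq2 called the same numbers as edgeR. At day 4, 7 of 10 were higher and none lower in edgeR, in DESeq2 and at an unadjusted p under 0.05, against 10.7% of all genes called higher and 10.1% lower. At day 10 all 10 were higher without GF and all 10 in CM, against 27.3% of all genes called higher and 27.3% lower without GF, and 19.2% higher and 19.1% lower in CM. At day 0 only 5 of the 10 had more than 3 reads in at least 1 group, and at day 4 this held for 8. The median log2 difference, with ratios of counts or the lower bound for groups of 3 reads or fewer, was -0.71 over the 5 genes at day 0, 2.02 over the 8 at day 4, 6.09 over all 10 at day 10 without GF and 5.18 in CM, while the median over all genes lay between -0.02 and 0.02.

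**Figure D1:**
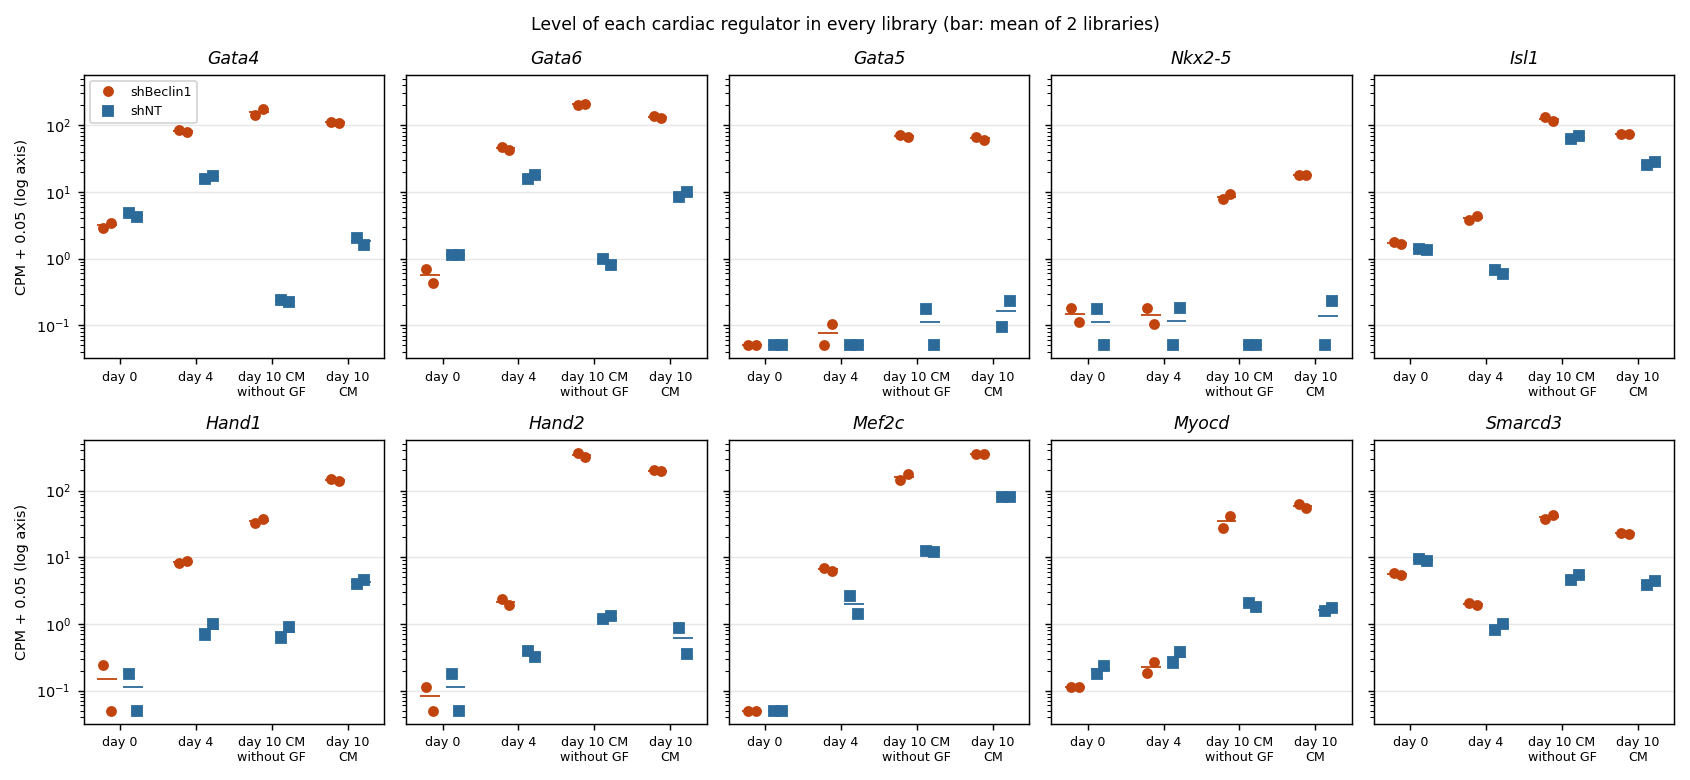
Level of each gene in every library (CPM + 0.05, log axis) at day 0, day 4 and in both day 10 cultures, with shBeclin1 as orange circles left of shNT as blue squares and a bar at the mean of 2 libraries. At day 10 both shBeclin1 libraries lie above both shNT libraries in each panel, and Gata5 and Nkx2-5 lie near the bottom of the axis until day 10.

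Among the GATA genes, Gata4 parted the hairpins early and by a wide margin. Gata4 (chromosome 14, 63198922 to 63271692, minus strand, 10 merged exons, GRCm38) had 2.86 and 3.33 CPM in shBeclin1 stem cells, against 4.86 and 4.20 CPM in shNT stem cells. The shBeclin1 libraries were the lower ones and did not overlap the shNT libraries, but the difference missed the threshold (log2 -0.55 ± 0.19 SE, adjusted p = 0.0563 in edgeR). At day 4 Gata4 had 85.0 and 78.9 CPM in shBeclin1 embryoid bodies, against 15.5 and 17.4 CPM in shNT embryoid bodies, a log2 difference of 2.31 ± 0.09 (adjusted p = 1.68e-20). At day 10 it had 144 and 172 CPM in shBeclin1 cells without GF, against 0.186 and 0.172 CPM in shNT cells without GF (log2 9.73 ± 0.18, adjusted p = 3.01e-32). The shNT group held 6 reads there, and the ratio of counts was 889 with a counting interval of 408 to 2424. The CM culture gave 112 and 110 CPM in shBeclin1 cells, against 2.01 and 1.56 CPM in shNT cells (log2 5.92 ± 0.13, adjusted p = 3.31e-30). Gata4 in shNT cells thus peaked at day 4 and was lower at day 10 than in the stem cells they came from, whereas no shBeclin1 library at day 10 fell below those of day 4.

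Gata6, which overlaps GATA4 in function in the early heart and endoderm, also differed at day 4 and day 10, by less than Gata4. It had 47.1 and 42.7 CPM in shBeclin1 embryoid bodies, against 15.8 and 17.8 CPM in shNT embryoid bodies (log2 1.41 ± 0.10, adjusted p = 2.06e-14). Without GF it had 199 and 211 CPM in shBeclin1 cells, against 0.931 and 0.745 CPM in shNT cells (log2 7.93 ± 0.14, adjusted p = 7.37e-33). The shNT group held 28 reads there, and the ratio of counts was 247 with a counting interval of 171 to 372. The CM levels were 138 and 127 CPM in shBeclin1 cells, against 8.23 and 10.1 CPM in shNT cells (log2 3.87 ± 0.09, adjusted p = 1.27e-28). In shNT CM it averaged 9.16 CPM, against 1.08 CPM in shNT stem cells, whereas Gata4 was lower there than in stem cells. The groups did not overlap at day 4 or day 10, and at day 0 all libraries had about 1 CPM or less and the difference was not called (adjusted p = 0.0769). GATA6 is also a factor of endoderm, so endoderm markers are set beside it. The summed level of 12 endoderm genes was 269 to 321 CPM in shBeclin1 and 157 to 174 CPM in shNT cells without GF, and in CM it was 236 to 240 CPM in shBeclin1 and 340 to 347 CPM in shNT cells. Its members went both ways without GF, where Afp was higher (log2 6.85) and Foxa2 lower (log2 -4.69) in shBeclin1 cells, and the part of endoderm in the Gata6 level was not tested.

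Gata5 (chromosome 2, 180325133 to 180334699, minus strand) is the GATA factor of the endocardium and early myocardium, and it was at or near 0 reads until day 10. At day 0 no read was counted in any library, and at day 4 there was 1 read in shBeclin1 and none in shNT embryoid bodies, too few for a comparison. At day 10 Gata5 had 71.3 and 65.9 CPM in shBeclin1 cells without GF, against 0.124 and 0 CPM in shNT cells. With 2 reads in the shNT group, the ratio was 1149 with a counting interval of 318 to 9491. In CM Gata5 had 66.8 and 60.2 CPM in shBeclin1 cells, against 0.0438 and 0.180 CPM in shNT cells, where the group held 4 reads (log2 9.19 ± 0.24, adjusted p = 8.95e-26). The ratio of counts in CM was 625 with a counting interval of 244 to 2296. The 4 shBeclin1 libraries of day 10 held 1028 to 1304 reads of Gata5, and no other library held more than 3. An antisense gene, Gata5os, overlaps 7.87% of the Gata5 exon bases and was itself at 2.99 CPM in shBeclin1 cells without GF and 1.80 CPM in shBeclin1 CM.

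Nkx2-5 (chromosome 17, 26838664 to 26845009, minus strand), the homeodomain factor of heart muscle progenitors, also appeared at day 10. It had 7.69 and 9.20 CPM in shBeclin1 cells without GF, whereas no read was counted in either shNT library there. Against a floor of 3 reads over the shNT group it was at least 95.0-fold higher in shBeclin1 cells. In CM Nkx2-5 had 17.8 and 17.9 CPM in shBeclin1 cells, against 0 and 0.180 CPM in shNT cells, 3 reads in all, which gives a ratio of 235 with a counting interval of 80.0 to 1142. At day 0 and day 4 no group held more than 3 reads, and the hairpins could not be compared at this depth. Nkx2-5 was thus detected well above the floor in the shBeclin1 groups of day 10 and in no other group.

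Isl1 (chromosome 13, 116298281 to 116309689, minus strand) had the smallest difference between hairpins of the 10 genes at day 10, and shNT cells expressed it, as they did Mef2c. At day 0 it had 1.76 and 1.60 CPM in shBeclin1 stem cells, against 1.34 and 1.32 CPM in shNT stem cells, a difference that was not called (adjusted p = 0.507). At day 4 it had 3.79 and 4.29 CPM in shBeclin1 embryoid bodies, against 0.627 and 0.538 CPM in shNT embryoid bodies (log2 2.78 ± 0.28, adjusted p = 4.36e-10). At day 10 it had 131 and 118 CPM in shBeclin1 cells without GF, against 62.0 and 69.1 CPM in shNT cells (log2 0.92 ± 0.08, adjusted p = 5.44e-13). In CM Isl1 had 74.9 and 74.7 CPM in shBeclin1 cells, against 25.6 and 28.2 CPM in shNT cells (log2 1.48 ± 0.08, adjusted p = 1.89e-17). The libraries did not overlap at day 4 or day 10. ISL1 is also a factor of motor and sensory neurons. Summed over 12 genes of such neurons, the level was 23.6 to 26.6 CPM in shBeclin1 and 87.9 to 88.4 CPM in shNT cells without GF. There Lhx4 averaged 0.161 CPM in shBeclin1 and 11.7 CPM in shNT cells. Members went both ways: Prph was called higher in shBeclin1 cells (log2 1.51 ± 0.17, adjusted p = 1.93e-09), and the other called genes were lower. Of the 12, 1 was at 1 CPM or more in both shBeclin1 libraries without GF and 8 in both shNT libraries. In shBeclin1 CM 9 of the 12 neuron genes, Lhx4 among them, were at 0 while Isl1 was at 74.8 CPM. The part of neurons in the Isl1 level of shNT cells was not tested.

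The HAND genes gave some of the largest differences. Hand1 (chromosome 11, 57828705 to 57832818, minus strand), linked to the left ventricle and extraembryonic mesoderm, had 8.10 and 8.63 CPM in shBeclin1 embryoid bodies, against 0.627 and 0.942 CPM in shNT embryoid bodies (log2 3.40 ± 0.25, adjusted p = 2.54e-13). Without GF it had 33.0 and 37.3 CPM in shBeclin1 cells, against 0.558 and 0.859 CPM in shNT cells (log2 5.61 ± 0.19, adjusted p = 2.81e-24). The libraries of CM had 151 and 141 CPM in shBeclin1 cells, against 3.90 and 4.45 CPM in shNT cells (log2 5.14 ± 0.13, adjusted p = 1.94e-28). No groups overlapped at day 4 or day 10, and Hand1 had the largest called difference of the 10 genes at day 4.

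Hand2 (chromosome 8, 57320983 to 57324633, plus strand), linked to the right ventricle and outflow tract, was low at day 4 and had the larger difference of the HAND genes at day 10. It had 2.33 and 1.89 CPM in shBeclin1 embryoid bodies, against 0.348 and 0.269 CPM in shNT embryoid bodies (log2 2.73 ± 0.43, adjusted p = 1.12e-05). Without GF it had 368 and 314 CPM in shBeclin1 cells, against 1.12 and 1.26 CPM in shNT cells (log2 8.15 ± 0.14, adjusted p = 9.72e-31). In CM it had 199.6 and 195 CPM in shBeclin1 cells, against 0.832 and 0.300 CPM in shNT cells (log2 8.33 ± 0.15, adjusted p = 1.40e-29). The shNT group of CM held 24 reads, and the ratio of counts was 325 with a counting interval of 218 to 507. Groups did not overlap at any of these points. The antisense gene Hand2os1 covers 19.6% of the Hand2 exon bases and averaged 249 CPM in shBeclin1 and 0.594 CPM in shNT cells without GF, and 124 CPM in shBeclin1 and 0.134 CPM in shNT cells in CM. Whether reads were counted by strand is not stated in the sources used here, and reads of the shared bases cannot be told apart.

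Mef2c (chromosome 13, 83504034 to 83667080, plus strand) was at 0 in all 4 stem cell libraries and present in every later library. It had 6.84 and 6.18 CPM in shBeclin1 embryoid bodies, against 2.58 and 1.35 CPM in shNT embryoid bodies (log2 1.73 ± 0.23, adjusted p = 1.41e-06). Without GF it had 145 and 178 CPM in shBeclin1 cells, against 12.3 and 12.0 CPM in shNT cells (log2 3.73 ± 0.10, adjusted p = 1.22e-21). Mef2c in CM had 353 and 353 CPM in shBeclin1 cells, against 79.2 and 80.4 CPM in shNT cells (log2 2.15 ± 0.08, adjusted p = 4.56e-18). The groups did not overlap, and the level was higher in CM than without GF in both hairpins. MEF2C is also used by endothelium, whose 10 summed markers were at 278 to 371 CPM in shBeclin1 and 88.6 to 91.4 CPM in shNT cells without GF, and at 888 to 970 CPM in shBeclin1 and 894 to 928 CPM in shNT cells in CM. The endothelial sum was thus about as high in both hairpins in CM, where Mef2c differed. Its members went both ways there: Cldn5 (log2 -1.14), Sox18 (-0.88), Esam (-0.46) and Emcn (-0.41) were called lower in shBeclin1 cells, Pecam1 (0.36) was higher, and the rest were not called. The part of endothelium in the Mef2c level was not tested.

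Myocd (chromosome 11, 65176561 to 65269989, minus strand) differed at day 10, while earlier reads were too few to compare closely. At day 0 it had 2 reads in shBeclin1 and 5 in shNT stem cells, a ratio of 0.408 with a counting interval of 0.0389 to 2.49. At day 4 it had 0.133 and 0.223 CPM in shBeclin1 embryoid bodies, against 0.209 and 0.336 CPM in shNT embryoid bodies (log2 -0.57 ± 0.82, adjusted p = 0.702). Without GF it had 27.6 and 41.1 CPM in shBeclin1 cells, against 1.99 and 1.72 CPM in shNT cells (log2 4.22 ± 0.19, adjusted p = 4.19e-20). Myocd in CM had 63.5 and 54.7 CPM in shBeclin1 cells, against 1.49 and 1.68 CPM in shNT cells (log2 5.23 ± 0.18, adjusted p = 6.29e-23). The libraries overlapped at day 4 and were far apart at day 10. Myocardin also acts in smooth muscle, whose 10 summed genes were at 2132 to 2527 CPM in shBeclin1 and 300.5 to 320 CPM in shNT cells without GF, and at 2636 to 2724 CPM in shBeclin1 and 359 to 387 CPM in shNT cells in CM. Smooth muscle genes thus moved with Myocd at day 10, and their part in its level was not tested.

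Smarcd3 (chromosome 5, 24590818 to 24624411, minus strand) was the 1 gene of the 10 that was called lower in shBeclin1 stem cells. It had 5.73 and 5.32 CPM there, against 9.39 and 8.66 CPM in shNT stem cells (log2 -0.71 ± 0.16, adjusted p = 0.00204). At day 4 it had 1.99 and 1.89 CPM in shBeclin1 embryoid bodies, against 0.767 and 0.942 CPM in shNT embryoid bodies (log2 1.17 ± 0.31, adjusted p = 0.00492), a call lost without the first shNT library of day 4 (adjusted p = 0.0741). At day 10 it had 37.7 and 43.1 CPM in shBeclin1 cells without GF, against 4.53 and 5.33 CPM in shNT cells (log2 3.03 ± 0.13, adjusted p = 6.55e-21). In CM it had 23.0 and 22.5 CPM in shBeclin1 cells, against 3.77 and 4.39 CPM in shNT cells (log2 2.49 ± 0.14, adjusted p = 2.40e-17). Groups did not overlap at any point, and the direction at day 0 was opposite to that of later days. Chpf2, a gene on the opposite strand, overlaps 48.2% of the Smarcd3 exon bases and averaged 16.2 CPM in shBeclin1 and 7.93 CPM in shNT cells without GF, and 14.6 CPM in shBeclin1 and 14.7 CPM in shNT cells in CM, so reads of the shared bases cannot be told apart.

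**Figure D2:**
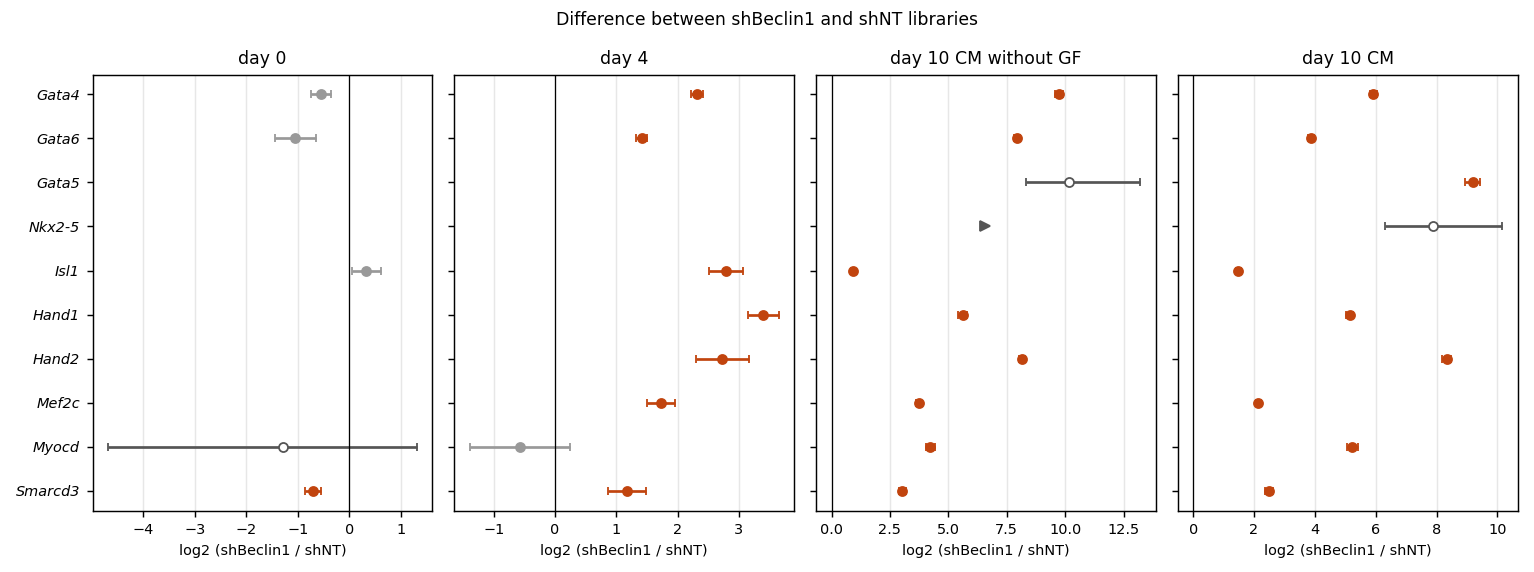
Log2 difference of shBeclin1 over shNT for each gene at day 0, day 4 and in both day 10 cultures, on an axis of its own in each panel. Error bars of filled points understate the error where a group held few reads. Filled points are edgeR estimates with their SE (orange called, grey not called), open points are ratios of counts with a 95% counting interval where a group held 1 to 3 reads, the triangle is a lower bound against a floor of 3 reads, and no point is drawn where both groups held 3 reads or fewer; called genes lie right of 0 from day 4 on, and Isl1 is nearest to 0 at day 10.

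Within shBeclin1 cells most of the genes were higher at day 4 and all were higher again at day 10. From day 0 to day 4, 6 of 10 were higher and 1, Smarcd3, was lower (log2 -1.51 ± 0.21, adjusted p = 4.52e-08), against 67.8% of all genes called in either direction. The share called was thus about that of all genes, of which 6797 were higher and 6173 lower. Gata4 was higher by log2 4.72 ± 0.12 and Gata6 by 6.42 ± 0.18. Mef2c, with 214 reads at day 4 and 0 at day 0, was at least 66.9-fold higher. Hand1 had 277 reads at day 4 and 3 at day 0, a ratio of 86.6 with a counting interval of 29.3 to 422, while Gata5, Nkx2-5 and Myocd were not called. At day 10 all 10 were higher than at day 4 both without GF and in CM, against 38.0% and 37.3% of all genes called higher. Gata4 gained least, by log2 0.95 ± 0.08 without GF and 0.44 ± 0.08 in CM, and the genes near 0 at day 4 gained most, with Myocd higher by log2 7.51 ± 0.28 without GF and 8.29 ± 0.27 in CM. Hand2 gained log2 7.34 ± 0.13 without GF and 6.56 ± 0.13 in CM.

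In shNT cells the same genes divided, as did genes as a whole. From day 0 to day 4, 4 of 10 were higher (Gata4, Gata6, Hand1 and Mef2c) and 2 lower (Isl1 and Smarcd3). Of all genes 66.9% were called in either direction, a share near that of the 10. Isl1 was lower at day 4 than at day 0 in shNT cells (log2 -1.18 ± 0.36, adjusted p = 0.00469) and higher in shBeclin1 cells (log2 1.27 ± 0.21, adjusted p = 2.32e-06). At day 10, Gata4 and Gata6 were lower than at day 4, Gata4 by log2 -6.47 ± 0.26 without GF and -3.17 ± 0.16 in CM, and Gata6 by log2 -4.32 ± 0.19 without GF and -0.89 ± 0.12 in CM. Isl1 was higher by log2 6.80 ± 0.17 without GF and 5.51 ± 0.19 in CM, and Mef2c by log2 2.63 ± 0.20 without GF and 5.35 ± 0.15 in CM. In all, 5 of 10 were higher and 2 lower in either culture, about the share of all genes called, at 68.7% without GF and 70.0% in CM. Over all genes, 6838 were higher and 6321 lower without GF, and 7050 were higher and 6356 lower in CM. The shNT cells therefore raised Isl1, Mef2c, Myocd and Smarcd3 by day 10 in both cultures while both GATA genes fell, with Hand2 the fifth higher gene without GF and Hand1 in CM. Hand2 was also called higher in CM without the second CM library (log2 1.42, adjusted p = 0.0223), from few reads.

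The difference between hairpins itself differed between points for several genes. From day 0 to day 4 it grew for 4 of 10 genes, Gata4, Gata6, Isl1 and Smarcd3, against 7.93% of all genes with a higher difference. Day 10 without GF against day 4, it was higher for 8 genes and lower for 1, against 39.7% of all genes called in either direction. CM against day 4, it was higher for 7 and lower for 1, against 26.1%. Each of these counts of higher genes includes a gene with 3 reads or fewer in both day 4 groups. The hairpins could not be compared at day 4 for that gene, so its change from day 4 is not measured closely. The gene with a smaller difference at day 10 was Isl1 in both cultures, by log2 -1.86 ± 0.30 without GF and -1.31 ± 0.32 in CM. The Mef2c change from day 4 to CM was not called, with an interval from -0.13 to 0.96, but it was called higher without the second shNT library of day 4 (log2 0.82, adjusted p = 0.0403).

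The day 10 cultures were then set against each other within each hairpin. In shBeclin1 cells 5 of 10 genes were higher without GF than in CM and 4 lower, against 37.0% of all genes called in either direction. Hand1 was lower without GF by log2 -2.05 ± 0.10 (adjusted p = 2.20e-19), Mef2c by -1.13 ± 0.08 (adjusted p = 3.47e-12), Nkx2-5 by -1.08 ± 0.20 (adjusted p = 3.72e-05) and Myocd by -0.78 ± 0.12 (adjusted p = 3.28e-06, and 0.0529 when only the libraries compared were fitted). Smarcd3 was higher without GF by log2 0.83 ± 0.11, Hand2 by 0.79 ± 0.08, Isl1 by 0.73 ± 0.08, Gata6 by 0.63 ± 0.07 and Gata4 by 0.51 ± 0.08, with adjusted p-values of 7.36e-07 or less. Gata5 was not called, and the interval of its log2 difference ran from -0.09 to 0.32. HAND genes thus moved apart in shBeclin1 cells: without GF Hand2 was higher and Hand1 lower.

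In shNT cells 2 of 10 genes were higher without GF than in CM and 4 lower. Of all genes 52.8% were called in either direction, a share near that of the 10. Gata4 was lower without GF by log2 -3.30 ± 0.43, Gata6 by -3.43 ± 0.21, Mef2c by -2.71 ± 0.11 and Hand1 by -2.52 ± 0.28, with adjusted p-values of 4.11e-08 or less. Isl1 was higher by log2 1.29 ± 0.08 (adjusted p = 7.85e-16) and Hand2 by 0.96 ± 0.39 (adjusted p = 0.0360). The Hand2 call rested on 40 reads without GF and 24 in CM, and it was lost without the second CM library (adjusted p = 0.309) and without either library of the other culture (0.0688 and 0.163). Gata4 and Gata6 therefore moved in opposite directions between the cultures in the 2 hairpins, and Hand1 and Mef2c were lower without GF in both.

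**Figure D3:**
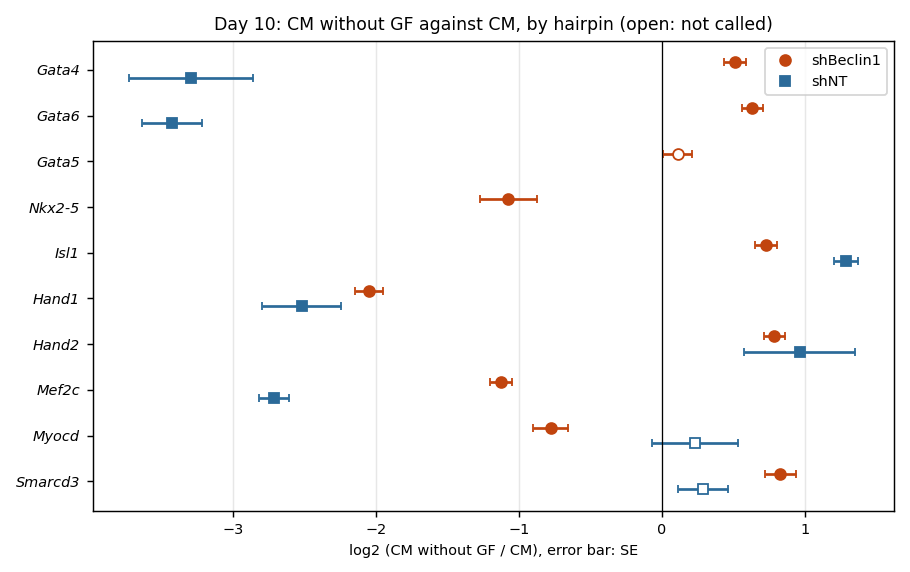
Log2 difference of day 10 CM without GF over CM for each gene, with its SE, in shBeclin1 (orange circles) and shNT cells (blue squares); open symbols were not called, and a pair with 3 reads or fewer in a group is left out. Gata4 and Gata6 lie right of 0 in shBeclin1 and left of 0 in shNT cells, while Hand1 and Mef2c lie left of 0 in both. The SE understates the error where a group held few reads, as for Gata4 in shNT cells.

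The change in the hairpin difference between the cultures was higher without GF for 4 genes and lower for 2, against 34.4% of all genes called in either direction. Gata6 gave log2 4.06 ± 0.22 (adjusted p = 1.49e-17), Gata4 3.81 ± 0.43 (adjusted p = 4.17e-09) and Mef2c 1.59 ± 0.13 (adjusted p = 2.20e-10). These 3 differences came with lower levels in shNT cells without GF than in CM, as given above. Isl1 was lower by log2 -0.56 ± 0.11 (adjusted p = 1.35e-04), Myocd by -1.01 ± 0.33 (adjusted p = 0.0150) and Smarcd3 was higher by 0.54 ± 0.21 (adjusted p = 0.0395), and the calls of Myocd and Smarcd3 were lost in several other fits. For Hand2 the interval of the change ran from -0.96 to 0.61.

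Without GF, shBeclin1 cells still exceeded shNT cells that had been kept in CM. All 10 genes were higher, against 22.0% of all genes called higher, with a median log2 difference of 4.48. Mef2c was nearest, at 145 and 178 CPM in shBeclin1 cells without GF, against 79.2 and 80.4 CPM in shNT CM (log2 1.02 ± 0.08, adjusted p = 3.25e-11). Gata5 was farthest apart by its ratio of counts, 675 with a counting interval of 264 to 2481, but shNT CM held only 4 reads of it. Hand2 followed, at log2 9.12 ± 0.15 (adjusted p = 4.19e-31). Hairpin and culture both differ between these groups, so their parts cannot be told apart here.

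The 2 shBeclin1 libraries without GF differed from each other more than most pairs, though the 2 shNT stem cell libraries differed more. Over the tested genes the median absolute log2 difference was 0.155 in the first of these pairs and 0.187 in the shNT stem cell pair. In the shBeclin1 pair without GF the summed cardiomyocyte genes were 5431 and 9581 CPM. Of the 10 genes, 7 were higher in its second library, Myocd most at 27.6 and 41.1 CPM. Gata5, Hand2 and Isl1 were the lower ones there, with Hand2 at 368 and 314 CPM. Without either library all 10 genes stayed called higher than in shNT cells.

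Levels of different genes can be set side by side only per length, as CPM per kilobase (kb) of merged exons. In shBeclin1 cells without GF, Hand2 at 145.0 CPM per kb was followed by Gata4 at 40.5, Gata6 at 31.6 and Isl1 at 31.4, and Hand1 was lower at 17.6. In shBeclin1 CM, Hand2 at 84.0 and Hand1 at 73.2 CPM per kb were the highest, Gata4 followed at 28.4, and Mef2c, Gata6, Gata5 and Isl1 lay between 22.5 and 18.9 CPM per kb. In shNT cells Isl1 was the highest of the 10 in both cultures, at 16.6 CPM per kb without GF and 6.80 in CM, with Mef2c next in CM at 5.08 and no other gene above 1 without GF. At day 4 Gata4 led in both hairpins, at 21.0 CPM per kb in shBeclin1 and 4.21 in shNT embryoid bodies, and at day 0 Smarcd3 led in both, at 1.08 in shBeclin1 and 1.76 in shNT stem cells. Merged exons of Mef2c span 15715 bases over all its isoforms, so its value per kb may be low for the isoforms in use.

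The make-up of each family shifted as well. Per length, Gata4 made up 75.0% and 75.4% of the GATA sum in shBeclin1 embryoid bodies, against 62.1% and 61.9% in shNT embryoid bodies. At day 10 the 3 GATA genes were closer in shBeclin1 cells: Gata4 made up 41.3% and 45.6% without GF and 40.9% and 42.6% in CM, Gata6 between 29.6% and 34.3% and Gata5 between 20.8% and 29.0%. In shNT cells of day 10 Gata6 made up most of a small sum, 62.6% and 72.2% without GF and 70.5% and 77.3% in CM. Hand1 made up 80.4% and 84.3% of the HAND sum in shBeclin1 embryoid bodies, 9.55% and 12.3% in shBeclin1 cells without GF, and 47.2% and 45.9% in shBeclin1 CM. These shares are descriptions of 2 libraries each.

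**Figure D4:**
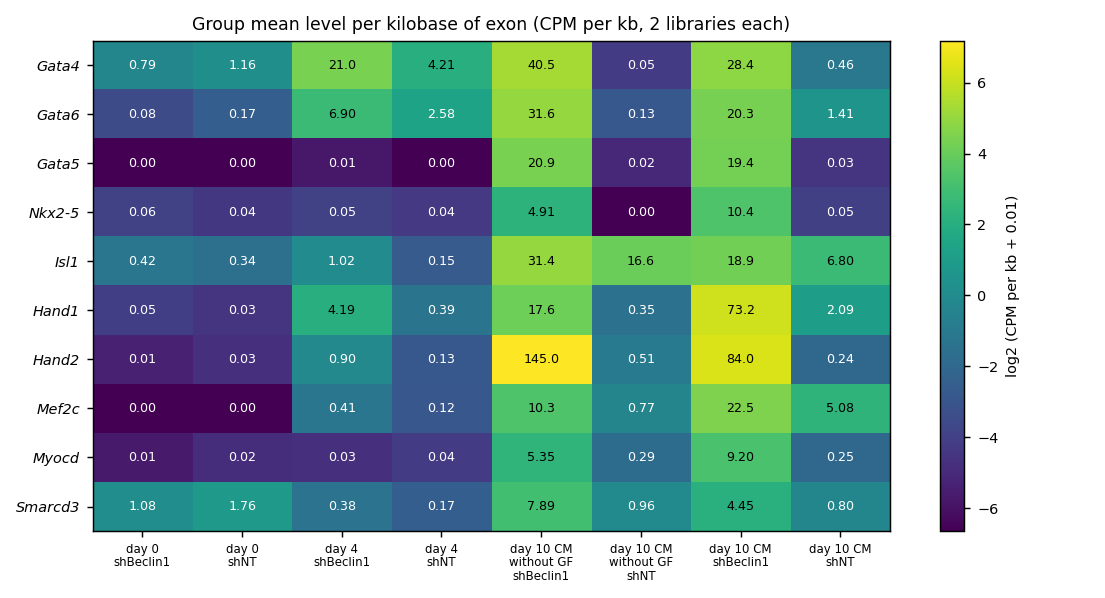
Mean CPM per kb of merged exon for each gene in the 8 groups, colour on a log2 scale, with shBeclin1 left of shNT at each point and the value printed in each cell. Hand2 in shBeclin1 cells without GF is the highest cell at 145.0, and Isl1 is the highest gene in both shNT columns of day 10.

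Both shBeclin1 groups of day 10 ranked highest for all 10 genes, and no genes shared an order over all 8 groups. Gata4, Gata5, Gata6, Hand2, Isl1 and Smarcd3 were highest in shBeclin1 cells without GF, and Nkx2-5, Hand1, Mef2c and Myocd in shBeclin1 CM. Neighbouring groups overlapped for Gata5 between the 2 shBeclin1 cultures of day 10, for Hand1 between shNT embryoid bodies and shNT cells without GF, and for Smarcd3 between shBeclin1 stem cells and shNT cells without GF. Hand2 overlapped between shNT CM and shNT embryoid bodies and Gata5 between the shNT cultures of day 10, and groups with few reads of Gata5, Nkx2-5, Hand1, Hand2, Mef2c and Myocd at day 0 or day 4 were not separated. Isl1, Gata4 and Gata6 had no neighbours that overlapped.

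Upstream of these genes, mesoderm genes differed at day 4. The list held 16 genes of the primitive streak and early mesoderm, many of them not particular to cardiac mesoderm. Of these, 15 were tested and 13 were higher and none lower in shBeclin1 embryoid bodies, in edgeR, in DESeq2 and at an unadjusted p under 0.05. The median log2 difference was 1.76, against 0.02 over all genes. Of all genes, 10.7% were called higher and 10.1% lower there. Kdr, a VEGF receptor of early mesoderm, averaged 149 CPM in shBeclin1 and 23.6 CPM in shNT embryoid bodies (log2 2.66 ± 0.08, adjusted p = 5.94e-25), and Pdgfra, a growth factor receptor of cardiac mesoderm, 204 CPM in shBeclin1 and 44.8 CPM in shNT (log2 2.19 ± 0.07, adjusted p = 1.84e-23). Brachyury (T), a factor of the primitive streak, averaged 557 CPM in shBeclin1 and 165 CPM in shNT embryoid bodies (log2 1.76 ± 0.07). At day 10 the direction of Brachyury was turned: it averaged 0.152 CPM in shBeclin1 and 28.8 CPM in shNT cells without GF (log2 -7.42 ± 0.22, adjusted p = 1.86e-26), and 0.430 CPM in shBeclin1 and 259 CPM in shNT cells in CM (log2 -9.21 ± 0.14, adjusted p = 3.30e-34). Tdgf1, a co-receptor of Nodal, was higher at day 4 and in both day 10 cultures, by log2 0.80 ± 0.06, 0.46 ± 0.08 without GF and 2.07 ± 0.08 in CM. By day 10, 7 of the 15 were higher and 4 lower without GF, where 27.3% of all genes went each way. The lower count was thus near the share of all genes. In CM 9 were higher and 1 lower, where 19.2% of all genes were higher and 19.1% lower.

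Among 23 partners and paralogs of the 10 genes, 6 were higher and 2 lower at day 4, where 10.7% of all genes were higher and 10.1% lower. At day 10 without GF 14 were higher and 3 lower, where 27.3% of all genes went each way, and in CM 9 were higher and 2 lower, where 19.2% were higher and 19.1% lower, with median log2 differences of 0.11 at day 4, 0.74 without GF and 0.07 in CM. Zfpm1, which encodes the GATA cofactor FOG1, averaged 50.2 CPM in shBeclin1 and 11.7 CPM in shNT embryoid bodies (log2 2.09 ± 0.11), 92.6 CPM in shBeclin1 and 5.24 CPM in shNT cells without GF (log2 4.15 ± 0.12) and 82.8 CPM in shBeclin1 and 16.4 CPM in shNT cells in CM (log2 2.34 ± 0.10), with adjusted p-values of 5.73e-17 or less. The related gene Zfpm2 did not follow it in CM, where it was lower in shBeclin1 cells (log2 -1.21 ± 0.15, adjusted p = 3.45e-08). Zfpm2 was higher at day 4 (log2 2.04 ± 0.69, adjusted p = 0.0313) and without GF (log2 2.42 ± 0.19, adjusted p = 7.82e-13). Tead1, a muscle and Hippo pathway factor, was higher by log2 1.17 ± 0.07 without GF and 1.11 ± 0.07 in CM, and Mef2d, a paralog of Mef2c, by 1.16 ± 0.08 without GF and 0.37 ± 0.07 in CM, while Mef2d was lower at day 4 (log2 -0.25 ± 0.09, adjusted p = 0.0398). Lhx2, another LIM-homeodomain gene, was lower without GF (log2 -3.85 ± 0.27) and higher in CM (log2 1.31 ± 0.34).

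T-box factors that act with GATA4 and NKX2-5 split. Of 6, 2 were higher and none lower at day 4 (the same numbers by DESeq2 and at an unadjusted p under 0.05), and 4 were higher and 2 lower in each day 10 culture. Of all genes, 10.7% were higher and 10.1% lower at day 4, and 27.3% went each way without GF. In CM 19.2% of all genes were higher and 19.1% lower. The lower count without GF was thus near the share of all genes. Tbx5, a partner of both factors in the first heart field, averaged 26.0 CPM in shBeclin1 and 0.0286 CPM in shNT cells without GF (adjusted p = 2.93e-12), and 3.07 CPM in shBeclin1 CM against none in shNT CM. Tbx2 was higher by log2 1.11 ± 0.21 without GF and 3.30 ± 0.19 in CM, and Tbx3 was higher at day 4 (log2 2.66 ± 0.12) and in CM (log2 1.55 ± 0.14) and lower without GF (log2 -1.28 ± 0.12). Tbx18, a factor of epicardium and sinus horn, was higher without GF, at 114 CPM in shBeclin1 and 25.4 CPM in shNT cells (log2 2.16 ± 0.09), and lower in CM, at 2.16 CPM in shBeclin1 and 15.6 CPM in shNT cells (log2 -2.83 ± 0.15). Summed over 8 genes, epicardial markers were at 484 to 585 CPM in shBeclin1 and 4.72 to 5.21 CPM in shNT cells without GF, and at 69.0 to 70.9 CPM in shBeclin1 and 12.4 to 13.6 CPM in shNT cells in CM, so they were highest in the culture in which Gata4, Gata6 and Hand2, genes that epicardium also uses, were highest, and their part in those levels was not tested.

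Cardiomyocyte genes were listed as possible targets of GATA4, NKX2-5 and MEF2C, and whether these factors drive them here was not tested. Of 24 such genes, none was called between hairpins before day 10 in edgeR. Of 23 tested, none was higher or lower at day 4 in edgeR, when 7 of the 10 regulators were already higher in shBeclin1 cells. At an unadjusted p under 0.05, 1 was higher and none lower, and DESeq2 called 2 higher and none lower. Many were too low to compare closely at day 4. Of the 24, 7 were at 1 CPM or more in both shBeclin1 libraries and 8 in both shNT libraries of embryoid bodies. Tnnt2 gave log2 1.47 ± 2.38 there, so differences could have been missed. All 23 were higher in both cultures of day 10 in edgeR (22 without GF and 21 in CM by DESeq2), with medians of 7.05 without GF and 7.29 in CM. Nppa, which encodes atrial natriuretic peptide, was higher by log2 6.51 ± 0.41 without GF and 7.59 ± 0.31 in CM, and Smyd1, a muscle methyltransferase and MEF2C target, by 5.73 ± 0.13 without GF and 6.51 ± 0.14 in CM. Of 12 second heart field genes, Isl1 and Mef2c among them, 8 were higher at day 4 and none lower in edgeR and in DESeq2, against 9 and none at an unadjusted p under 0.05, with 6 higher and 4 lower without GF and 6 higher and 3 lower in CM. For each of these lists, 10.7% of all genes were higher and 10.1% lower at day 4, and 27.3% went each way without GF. In CM 19.2% were higher and 19.1% lower, so the lower counts of second heart field genes at day 10 were near the shares of all genes. Fgf10, a ligand made by second heart field cells, was higher at day 4 (log2 2.25 ± 0.12), whereas Eya1, a progenitor regulator, was lower at day 10, by log2 -2.20 ± 0.13 without GF and -2.74 ± 0.13 in CM. Of 10 smooth muscle genes, listed as possible targets of myocardin, 9 were higher and 1 lower without GF and 8 higher and 2 lower in CM. Synpo2 was higher by log2 4.44 ± 0.10 without GF and 5.20 ± 0.10 in CM. At day 4, 1 of the 10 was higher and 2 were lower in edgeR and in DESeq2, where 10.7% of all genes were higher and 10.1% lower. Acta2 was the higher one (log2 0.79 ± 0.22, adjusted p = 0.0186 in edgeR), and Synpo2 (log2 -0.87 ± 0.22) and Cnn1 (log2 -0.62 ± 0.13) were the lower ones.

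**Figure D5:**
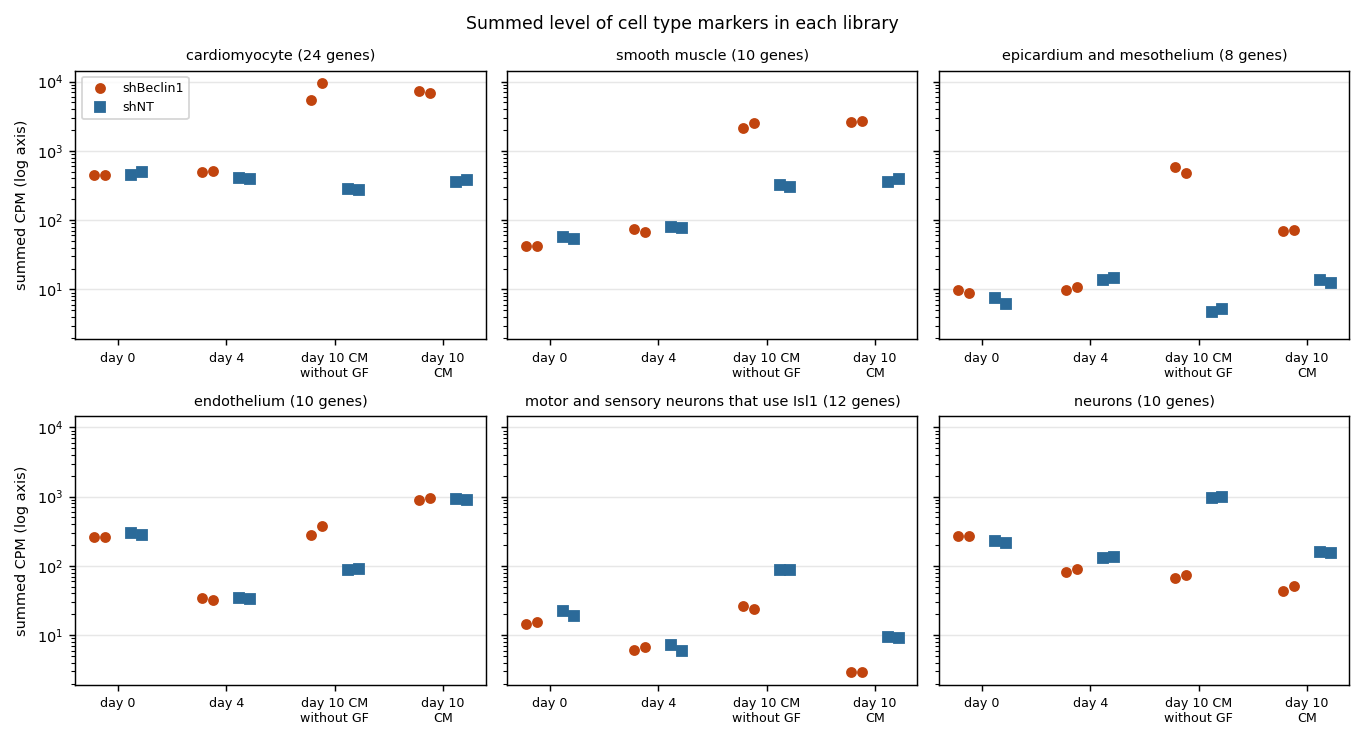
Summed CPM (log axis) of marker genes of 6 cell types in every library, with shBeclin1 as orange circles left of shNT as blue squares and replicate 1 left of replicate 2. Cardiomyocyte, smooth muscle and epicardial sums are higher in shBeclin1 cells at day 10, the neuron sums are higher in shNT cells without GF, and the endothelial sums of both hairpins meet in CM.

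The genes whose log2 CPM tracked 9 of the regulators most closely over the 16 libraries were found among 11894 expressed genes. Gata5 followed Tnnt2 and the cardiac myosin gene Myh6 (r = 0.98 each), and Nkx2-5 followed Adamts2 and the atrial light chain gene Myl7 (r = 0.97 each). Hand2 followed Bambi (r = 0.99) and Smad6 (r = 0.97), which encode inhibitors of TGF-beta and BMP signalling, and Myocd followed Synpo2 and the Notch target Hey2 (r = 0.99 each). Mef2c followed Kank1 (r = 0.99), Isl1 Sdk2 (r = 0.99), Hand1 Smim3 (r = 0.97), Gata6 Tsc22d2 (r = 0.96) and Gata4 Dsp, the desmoplakin gene (r = 0.94). All 16 libraries share the 2 hairpins and 4 points, so these values describe how alike the profiles are and carry no test.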

How the data were processed

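RNA was sequenced from 16 libraries in 8 groups of 2. The authors deposited raw counts per gene symbol, and per the submitters' processing notes Trimmomatic 0.36, featureCounts, Subread 1.5.1 and SAMtools were used with mm10; the sources used here name no aligner, annotation or strand setting. Per the labels' protocols the RNA was depleted of rRNA and a stranded kit was used, while the molecule tag names polyA RNA.

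Counts were analysed with edgeR 4.0.16 in R 4.3.3. The filterByExpr step kept 19141 of 54052 entries, libraries were scaled with TMM (factors 0.884 to 1.08), and a robust quasi-likelihood model with 1 mean per group was fitted to all 16 libraries, with 8 residual degrees of freedom and Benjamini-Hochberg adjustment over all tested genes. The code was tested on simulated data. Errors of log2 differences are standard errors taken as the difference divided by the square root of its F statistic. They understate the error where a group held few reads, so counting intervals stand beside some of those estimates. For a group with 3 reads or fewer, ratios of CPM with exact 95% intervals are given, which cover counting error only, or a bound against a floor of 3 reads per group, and no fold is given where both groups are at or under it. Depth therefore limits genes at under about 10 reads.

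The members and lists were chosen with earlier results of these data known. The genes named beside the 10 are, from each list, up to 4 called between hairpins at day 4 or day 10 with the smallest adjusted p, and the genes whose profiles were most alike; some of these are not reported here. Tnnt2, Atp2a2, Lhx4, Prph, Zfpm2, Acta2 and antisense genes were named after their values were seen. Exon lengths are from GENCODE vM21 (GRCm38). Replicate numbers did not pair libraries (correlations of deviations -0.02 to 0.02), so no block was used. Alternatives tried were DESeq2 1.42.0, RLE and total-count scaling, other filters, fits of the compared libraries alone, the replicate block and each library left out.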

Additional observations from a re-analysis of the deposited data

Results flagged for a closer look

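The difference between hairpins changed between points, by an interaction term in edgeR with an adjusted p under 0.05, for the genes given here as the log2 change of the shBeclin1 over shNT difference; groups of 2 were not tested for outlying libraries. Day 4 minus day 0 gave 2.86 for Gata4, 2.46 for Gata6, 2.45 for Isl1 and 1.88 for Smarcd3. Day 10 without GF minus day 4 gave 7.42 for Gata4, 6.52 for Gata6, 2.21 for Hand1, 5.42 for Hand2, 2.00 for Mef2c, 4.79 for Myocd, -1.86 for Isl1 and 1.86 for Smarcd3. Day 10 CM minus day 4 gave 3.61 for Gata4, 2.45 for Gata6, 1.74 for Hand1, 5.60 for Hand2, 5.80 for Myocd, -1.31 for Isl1 and 1.32 for Smarcd3. Without GF minus CM gave 3.81 for Gata4, 4.06 for Gata6, 1.59 for Mef2c, -1.01 for Myocd, -0.56 for Isl1 and 0.54 for Smarcd3. Genes with 3 reads or fewer in any of the 4 groups are left out, and comparisons that share day 4 libraries are not independent.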

How the results depend on the processing

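Between hairpins at day 10, all 10 genes were called higher in both cultures under every alternative run: RLE size factors, total counts, DESeq2, no filter, a strict filter, fits of the compared libraries alone, each library left out, and the replicate block. The replicate block changed no count by over 1.5 times: its counts were 1 at day 0, 7 at day 4 and 10 in each day 10 culture. At day 0 the count of 1 was 2 with total counts and 1 to 2 with a library left out, Gata4 being the added gene; at day 4 the count of 7 was 6 to 7 with a library left out. Over all genes, 2555 were called at day 0, against 1241 when only the compared libraries were fitted and 920 to 3011 with a library left out, and 3975 at day 4, against 2514 to 2644 with a library left out. Total counts moved the median log2 difference of all genes by up to 0.25, and the share of called genes that were higher was then 23.9% at day 0, 38.1% at day 4 and 36.7% in CM, in place of 43.4%, 51.5% and 50.1%; without GF against CM in shBeclin1 it was 57.8% in place of 45.1%, and day 10 without GF against day 4 in shNT 62.4% in place of 52.0%. The order of groups held for 10 of 10 genes with RLE and for 7 of 10 with total counts. Reversed values were all of differences that were not called in the reported fit: Hand1 in shNT without GF against day 4 (0.0713 with total counts, -0.44 to 0.18 with a library left out, against -0.14), Gata5 in shNT without GF against CM (-3.87 to 0.38, against -0.70), and the changes in hairpin difference of Mef2c from day 4 to CM (-0.12 to 0.82, against 0.42) and of Hand2 between cultures (-1.15 to 0.27 with a library left out, against -0.18). The Mef2c change was called at 0.82, without the second shNT library of day 4. The cause was not tested. Of the called changes, Smarcd3 between the cultures was lost with DESeq2, no filter and 5 left-out libraries, Myocd with 2 left-out libraries and the fit of the compared libraries alone, and Hand1 and Smarcd3 from day 4 to CM without the second shNT library of day 4.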
